A study of Mus musculus with 15 samples.

Results

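Accessible chromatin was described at 6 immediate early genes of mouse CD4+ T cells: the nuclear receptor genes Nr4a1, Nr4a2 and Nr4a3 and the zinc-finger genes Egr1, Egr2 and Egr3. The peaks of 15 ATAC-seq libraries were joined into regions wherever they overlapped by at least 1 bp. A region was kept if at least 2 libraries had a peak in it, and it was given to the nearest protein-coding gene within 100 kb. Of the 83743 regions kept, 45 lay at the 6 genes: 7 at Nr4a1, 5 at Nr4a2, 11 at Nr4a3, 3 at Egr1, 14 at Egr2 and 5 at Egr3. Another 15 regions at these genes had a peak in 1 library only and were not tested.

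In ATAC-seq the Tn5 transposase cuts and tags open DNA, so that fragments pile up over accessible sites. The cells were CD4+ T cells of IRF5+/+ mice, whose gene for interferon regulatory factor 5 is intact, and of IRF5-/- mice, which lack it. They were profiled untreated (0 h) or 72 h after activation, with 4 IRF5+/+ libraries at each time, 3 IRF5-/- libraries at 0 h (numbered 1, 3 and 4) and 4 at 72 h. The labels name no other allele or agent, and the activating stimulus, the age of the mice and the deleted part of Irf5 are not given in the sources used here, and peaks at Irf5 itself were not analysed here. Nothing in the labels ties a library to its own mouse or culture, so each p-value measures the spread between libraries, which may be technical. All untreated libraries are 0 h libraries, so activation and 72 h of culture cannot be told apart.

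The NR4A proteins are orphan nuclear receptors whose activity follows mainly from how much of them is made, and the EGR proteins are zinc-finger transcription factors that bind GC-rich sites. Both sets of genes are transcribed quickly after T cell receptor signalling, through serum response factor and its ELK partners at CArG boxes, through CREB and ATF proteins at cyclic AMP response elements (CRE), and through calcium-dependent NFAT. In T cells EGR2, EGR3 and the NR4A receptors are known for restraining responses, in anergy, tolerance and exhaustion, while EGR1 is known for activating early effector genes.

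Each library held 20.5 M to 29.0 M fragments after duplicates were removed. The libraries had 29994 to 47790 peaks at 0 h and 55519 to 69086 at 72 h. The share of duplicates was 0.17 to 0.29 at 0 h and 0.14 to 0.17 at 72 h, and the fragment size in the file headers was 142 to 182 bp at 0 h and 140 to 168 bp at 72 h. IRF5-/- library 3 at 0 h stood apart, with the fewest peaks (29994) and the lowest 0 h height at 18 of the 18 member regions measured in every library. It was low over all regions with a peak in every library. Its median log2 height relative to each region's mean was −0.714, against 0.349 to 0.765 in the other 0 h libraries. All 6 CD4 T cell marker genes in the gene table (Cd3e, Cd3d, Cd3g, Cd4, Cd5 and Cd28) had a peak in every library, with a summed height of 21.4 to 55.4 per M fragments at 0 h and 14.3 to 20.5 at 72 h. Of 7 B cell markers 3 or 4 had a peak in each library, and Ms4a1 and Cd79b were among those with none in any; their summed height was 3.71 to 10.4 at 0 h and 5.68 to 9.69 at 72 h. Among them the mean height in IRF5+/+ cells went from 4.74 at 0 h to 1.85 at 72 h at Cd79a, but from 1.78 to 2.54 at Pax5, from 1.94 to 3.19 at Ebf1 and from 0.691 to 1.1 at Blk. Of 6 myeloid markers 2 to 4 had a peak (summed height 1.95 to 7.92 at 0 h and 3.29 to 4.59 at 72 h). Itgam and Spi1 had one in every library, and Lyz2 and Adgre1 had none. Of 5 CD8 and NK cell markers 1 to 3 had a peak (1.42 to 5.11 at 0 h and 1.54 to 2.22 at 72 h), and Ncr1 and Klrb1c had none. Cd8b1 had one in every library, and its mean height in IRF5+/+ cells went from 3.18 at 0 h to 0.679 at 72 h. Cd8a had a peak in 4 IRF5+/+ and 2 IRF5-/- libraries at 0 h, and in 0 and 1 at 72 h. At Eomes the IRF5+/+ mean went from 0.93 to 1.14. The part of other cell types in the results was not tested, and in a bulk library fewer cells with an open site and less opening per cell cannot be told apart.

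The DNA under the gene starts shows what sequence these peaks cover. The set of gene starts used here, in GRCm38.p6 (the same build as mm10), covers 4 of the 6 genes and holds none for Egr1 and Egr3. The 250 bases before the start are shown for Nr4a1, Nr4a2 and Nr4a3 and for a pair of the 5 starts of Egr2, read 5′ to 3′ on the strand of the gene. Capitals mark the CRE half-site TGACG on either strand (CGTCA on the other) and the CArG box; the 5 windows lie within regions that had a peak in all 15 libraries.
Nr4a1, chr15:101266596-101266845, plus strand: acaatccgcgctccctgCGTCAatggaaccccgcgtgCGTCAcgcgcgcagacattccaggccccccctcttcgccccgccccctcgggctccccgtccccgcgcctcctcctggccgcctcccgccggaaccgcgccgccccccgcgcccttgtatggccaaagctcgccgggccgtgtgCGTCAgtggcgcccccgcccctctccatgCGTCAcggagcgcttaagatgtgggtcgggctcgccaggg
Nr4a2, chr2:57124004-57124253, minus strand: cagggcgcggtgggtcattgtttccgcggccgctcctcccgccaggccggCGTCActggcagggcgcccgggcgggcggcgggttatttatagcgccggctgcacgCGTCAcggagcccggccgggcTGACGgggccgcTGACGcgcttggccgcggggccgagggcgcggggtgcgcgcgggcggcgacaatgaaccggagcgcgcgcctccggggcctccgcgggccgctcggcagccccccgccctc
Nr4a3, chr4:48045055-48045304, plus strand: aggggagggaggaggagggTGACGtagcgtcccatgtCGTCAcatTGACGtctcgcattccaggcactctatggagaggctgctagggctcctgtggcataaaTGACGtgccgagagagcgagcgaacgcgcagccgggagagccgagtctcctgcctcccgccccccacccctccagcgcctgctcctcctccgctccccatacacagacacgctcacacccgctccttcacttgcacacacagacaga
Egr2, first start shown, chr10:67537316-67537565, plus strand: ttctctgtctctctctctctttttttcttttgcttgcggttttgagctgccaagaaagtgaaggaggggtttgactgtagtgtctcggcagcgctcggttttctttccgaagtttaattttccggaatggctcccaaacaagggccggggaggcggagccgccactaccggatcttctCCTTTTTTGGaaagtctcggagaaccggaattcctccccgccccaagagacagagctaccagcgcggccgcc
Egr2, second start shown, chr10:67537619-67537868, plus strand: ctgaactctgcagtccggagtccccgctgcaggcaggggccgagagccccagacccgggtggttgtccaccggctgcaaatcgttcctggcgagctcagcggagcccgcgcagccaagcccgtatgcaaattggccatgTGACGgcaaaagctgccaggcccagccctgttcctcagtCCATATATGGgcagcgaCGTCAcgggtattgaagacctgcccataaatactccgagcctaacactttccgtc

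The 3 NR4A windows each held 4 half-sites. They began 233, 213, 69 and 40 bases before the Nr4a1 start, 200, 144, 123 and 111 bases before the Nr4a2 start, and 231, 213, 205 and 147 bases before the Nr4a3 start. Among all 32817 windows of 250 bases in this set of starts, 17.7% held at least 1 half-site, 3.90% at least 2 and 0.137% at least 4. The second Egr2 window held 2 half-sites, 111 and 55 bases before the start, with a CArG box that began 72 bases before it and lay between them. The first Egr2 window held a CArG box 72 bases before its start and no half-site; 1.47% of all windows held a CArG box. The full CRE TGACGTCA, found in 1.55% of all windows, and the NR4A response element AAAGGTCA, found in 1.34%, were in none of these 5 windows. Of the EGR sites GCGTGGGCG and GCGGGGGCG, in 0.536% and 2.58% of all windows, the second occurred once, in the Nr4a1 window. All motifs were searched on both strands, and each full CRE also counts as a half-site. A match describes letters only.

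The summits of the peaks, the bases with the most fragments, fell inside these windows or close to them. At Nr4a1 the summit lay between positions −97 and −23 relative to the start over the 15 libraries, and at Nr4a3 it lay between positions −247 and −180 relative to it, the part of the window that holds 3 of its half-sites. At Egr2 the summit lay between positions −83 and −18 relative to the first start shown, with a median of −24. Relative to the second start shown it lay between −386 and −321, before that window and its motifs. At Nr4a2 the summit was less fixed: it lay between −164 and −120 in 9 libraries and between 184 and 514 bases after the start in the other 6. Those 6 were 4 of the 7 libraries at 0 h and 2 of the 8 at 72 h.

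Over all 6 genes, peaks appeared or disappeared with activation about as often as elsewhere. At 72 h 7 of the 45 regions (15.6%) were gained and 2 (4.44%) were lost by a two-sided exact conditional test of how many libraries carried a peak, with genotype as stratum and an adjusted p under 0.05. Among all 83743 regions 18.4% were gained and 4.65% were lost. The gained regions were 4 at Egr2 and 1 each at Nr4a2, Nr4a3 and Egr3, and the lost regions were 1 at Egr2 and 1 at Nr4a3; Nr4a1 and Egr1 had neither. Of the 7 gained regions 6 lay more than 1 kb outside the gene, as did both lost regions. In the authors' deposited final lists, 1 per condition, the 7 gained regions are in both 72 h lists and in neither 0 h list, and the 2 lost regions the reverse; these lists come from the same libraries. A peak is a thresholded call, and a region without one is not shown to be closed.

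**Figure D1:**
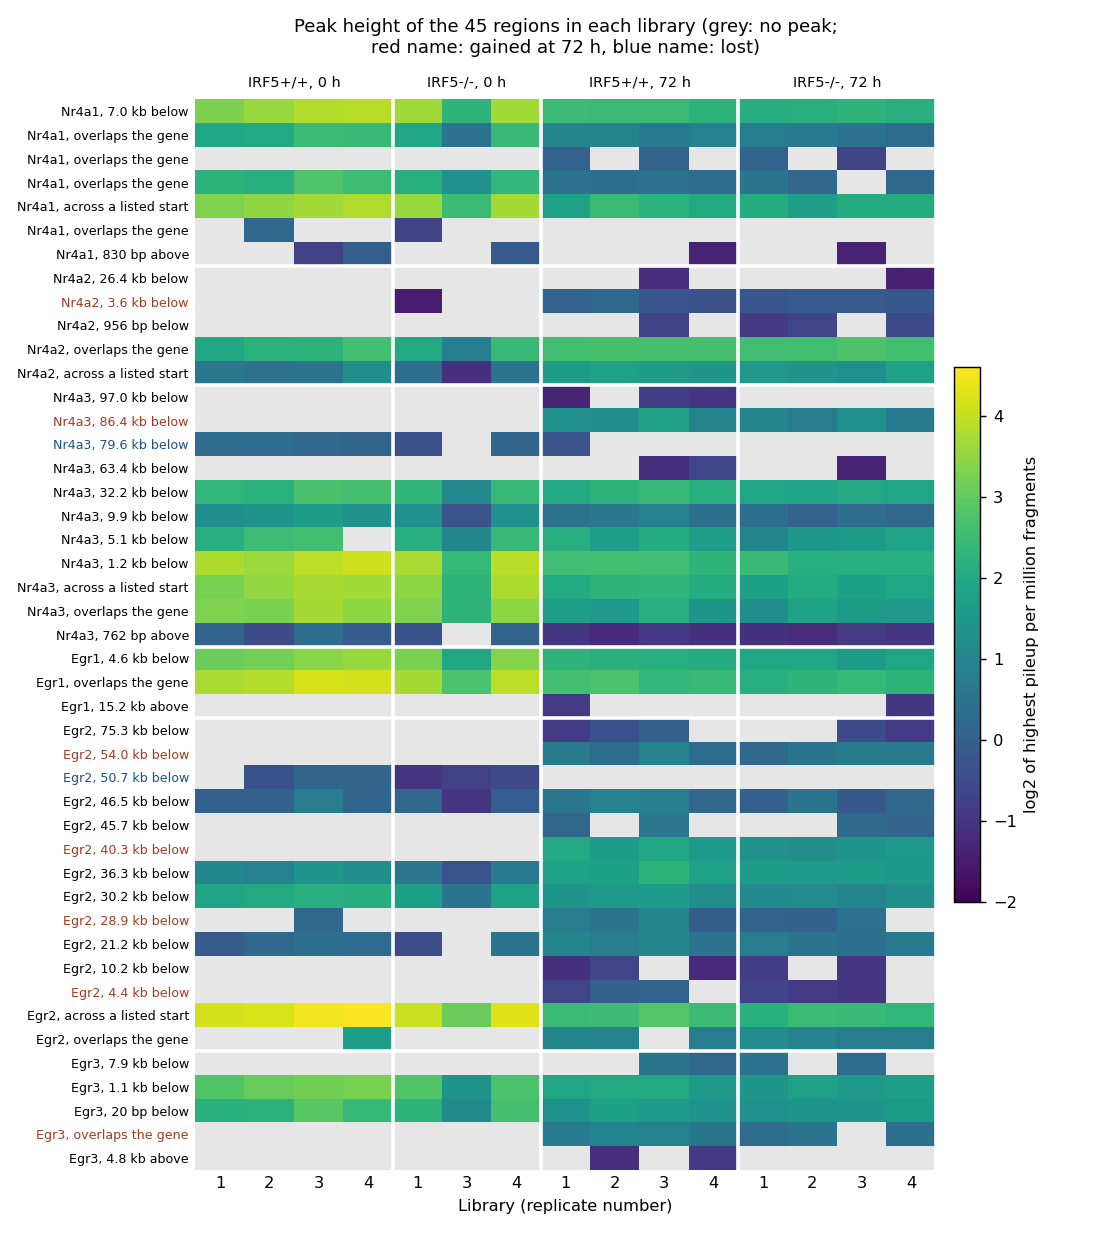
Highest pileup per M fragments (colour, log2 scale) of the 45 regions in rows, named by gene and by distance below or above the gene in coordinates, in each of the 15 libraries in columns. Grey cells have no peak; the 7 regions gained at 72 h (red names) and the 2 lost (blue names) lie outside the tall gene-start regions, and IRF5-/- library 3 at 0 h is lower than the other untreated libraries.

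The height of a region is its highest pileup per M fragments, and 18 of the 45 regions had a peak, and so a height, in all 15 libraries (25.3% of all regions did). Of these 18 regions 12 were lower and 3 higher at 72 h by limma, over both genotypes, at an adjusted p under 0.05. Among all 21176 such regions 65.4% were lower and 8.89% higher, and the whole distribution moved: the median change was −0.66 on the log2 scale, −0.81 in IRF5+/+ and −0.50 in IRF5-/- cells. The median change over the 18 member regions was −1.01. Taller regions were more often lower. Of the 10588 regions with a mean height above the median, 8652 were lower and 338 higher, with a median change of −0.81. The 12 member regions among them had 10 lower and 1 higher. When each library was scaled to its median ratio over these regions, which sets the shift of the whole distribution to about 0, 10 of the 18 were lower and 6 higher, against 36.9% and 36.1% of all regions, with a median change of −0.36 over the members. Within 1 kb of the gene 7 of 9 regions were lower and 2 higher, both at Nr4a2, where 68.7% and 7.34% of all regions within 1 kb of a gene were; on the median-ratio scale 6 were lower and 2 higher, against 38.7% and 33.3%. Farther away 5 of 9 were lower and 1 higher, where 54.4% and 14.1% of all such regions were, and on the median-ratio scale 4 were lower and 4 higher, against 30.9% and 45.3%. Without IRF5-/- library 3 at 0 h, 20 member regions had a height in every library, of which 15 were lower and 4 higher per M fragments, against 71.5% and 12.4% of all regions in that fit.

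In IRF5+/+ cells 12 of 18 regions were lower and 2 higher per M fragments by limma (65.2% and 5.14% of all regions), and 10 were lower and 5 higher relative to all regions (31.5% and 31.2%). In IRF5-/- cells 10 were lower and 3 higher per M fragments (39.7% and 7.57%), and 9 were lower and 6 higher relative to all regions (30.7% each). Every 72 h library was lower than every 0 h library at 3 of the 18 regions (9.24% of all regions), the starts of Nr4a1 and Egr2 and a region inside Nr4a3. Every 72 h library was higher at 2 of 18 (3.43%), the start of Nr4a2 and an Egr2 region 36.3 kb away. Of the 45 regions 3 had a peak in every 72 h and no 0 h library (8.86% of all), and 0 the reverse (1.37%).

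**Figure D2:**
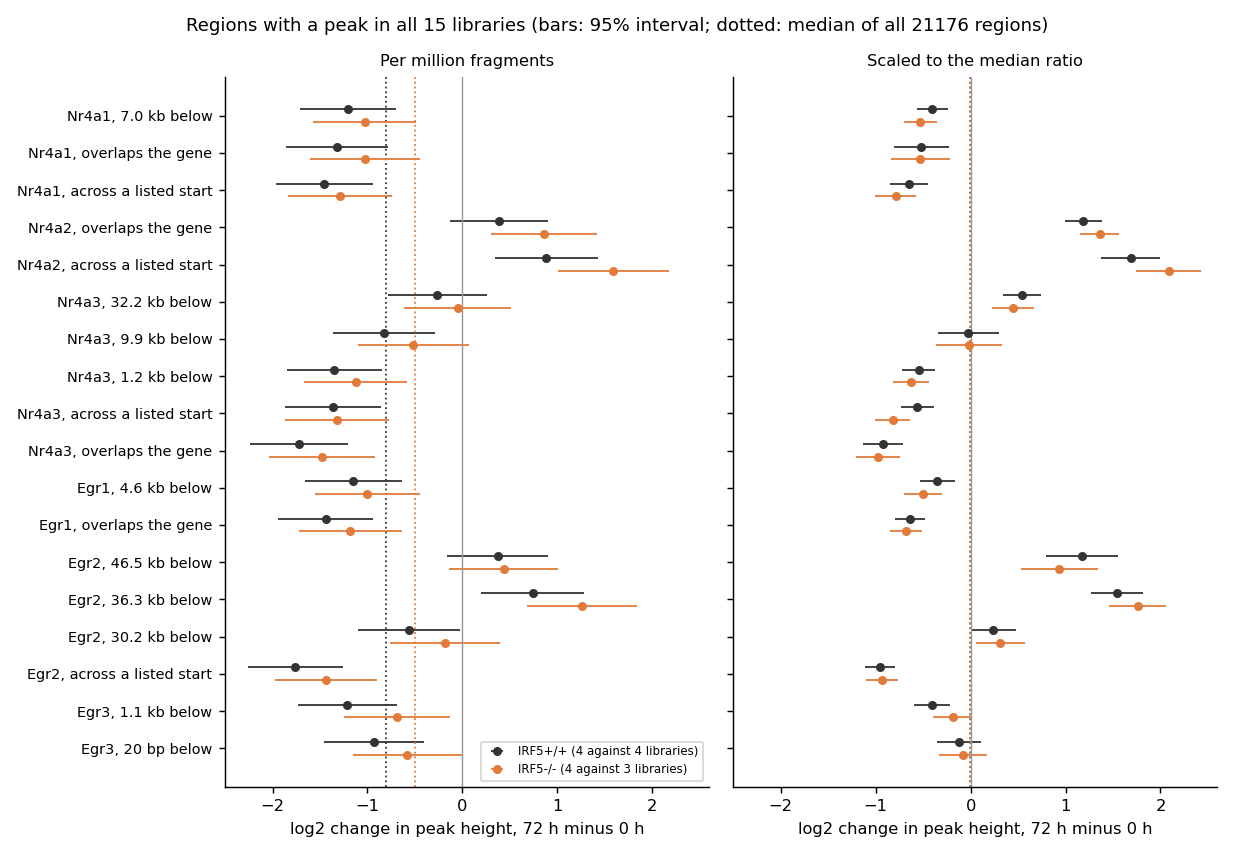
The log2 change in peak height, 72 h minus 0 h, for the 18 regions with a peak in all 15 libraries, in IRF5+/+ (black) and IRF5-/- (orange) cells with 95% intervals, per M fragments on the left and scaled to the median ratio on the right. Dotted lines mark the median of all 21176 regions, which lies at −0.81 and −0.50 on the left; both Nr4a2 regions and the Egr2 region 36.3 kb away lie to the right of 0 on both scales.

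At 0 h the tallest region within 1 kb of each gene ranked in the order Egr2, Egr1, Nr4a1, Nr4a3, Egr3, Nr4a2, and at 72 h Nr4a2 came first. Mean heights over the 7 libraries at 0 h were 18.2 ± 4.93 (SD) per M fragments for Egr2, 14.2 ± 3.91 for Egr1, 11.3 ± 2.80 for Nr4a1, 11 ± 3.05 for Nr4a3, 5.08 ± 1.65 for Egr3 and 4.41 ± 1.40 for Nr4a2. Over the 8 libraries at 72 h they were 6.25 ± 0.26 for Nr4a2, 5.64 ± 0.73 for Egr2, 5.38 ± 0.72 for Egr1, 4.21 ± 0.75 for Nr4a1, 4.12 ± 0.63 for Nr4a3 and 2.81 ± 0.30 for Egr3. Neighbours in the order at 0 h differed by less than the larger of their SDs, except Nr4a3 and Egr3. At 72 h this held for every neighbouring pair except Egr1 and Nr4a1, and Nr4a3 and Egr3. These SDs include shifts that all regions of a library share. Within every 0 h library Egr2 stood above Egr1, Egr1 above Nr4a1, and Nr4a3 above Egr3. Within every 72 h library Egr1 stood above Nr4a1 and Nr4a3 above Egr3. The order of the other neighbours varied between libraries. Ranked among all 21176 regions of the same libraries, which needs no scaling between times, the Egr2 region moved from the 99.3rd percentile at 0 h to the 90.5th at 72 h, Egr1 from the 97.2nd to the 89.1st, Nr4a1 from the 92.6th to the 78.9th and Nr4a3 from the 91.9th to the 77.9th. Egr3 moved from the 59.9th to the 57.4th and Nr4a2 from the 53.6th to the 93.5th.

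**Figure D3:**
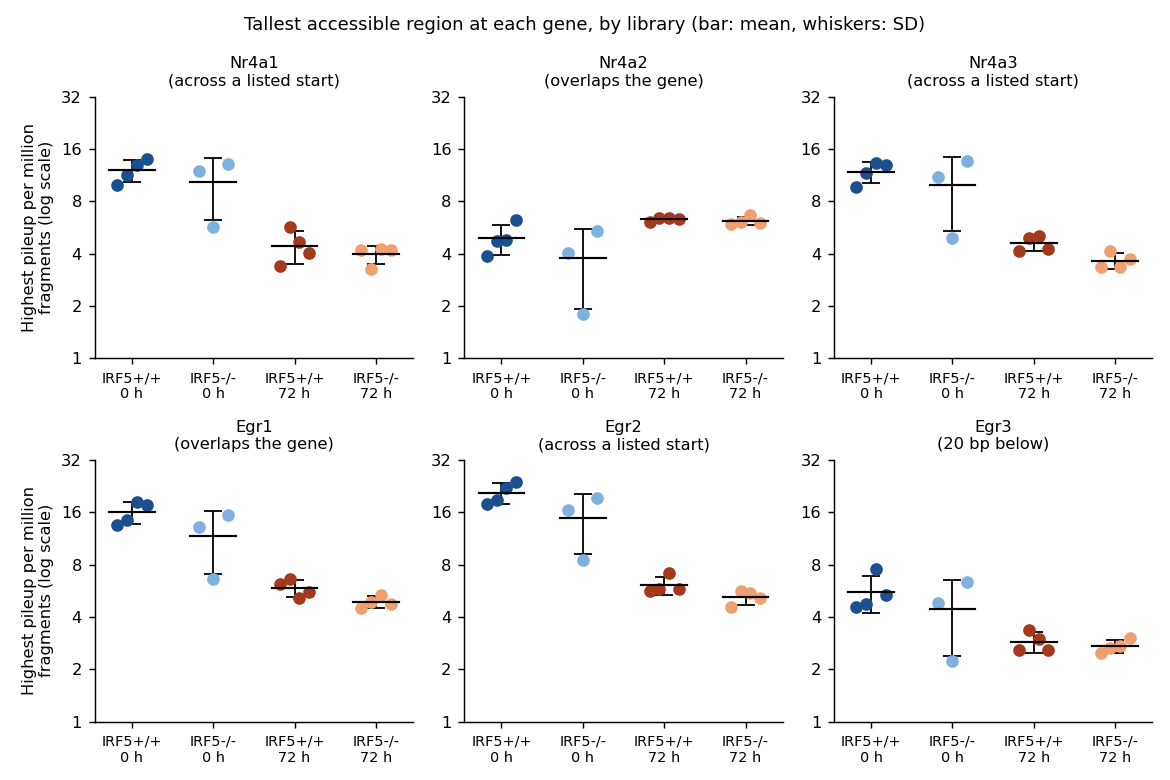
Height of the tallest region within 1 kb of each of the 6 genes in every library (points, log axis, fragments per M fragments), with the mean and SD of each group. Heights at 72 h lie below the IRF5+/+ heights at 0 h in every panel but that of Nr4a2, and the low IRF5-/- point at 0 h in each panel is library 3.

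Nr4a1, which encodes the receptor also called NUR77, had 3 regions open in every library, and all 3 were lower at 72 h. Its tallest region within 1 kb was chr15:101266229-101268047, across the start at 101266846. The heights at 0 h were 9.99, 11.3, 12.9 and 14.1 in IRF5+/+ and 12, 5.7 and 13.1 in IRF5-/- libraries. At 72 h it had 3.41, 5.7, 4.67 and 4.04 in IRF5+/+ and 4.18, 3.27, 4.23 and 4.21 in IRF5-/- libraries. The groups did not overlap: the lowest untreated library, 5.70, was just above the highest activated one. Its height fell by 1.37 on the log2 scale (SE 0.19, limma adjusted p = 7.62e-12) and by 0.72 relative to all regions (SE 0.07, adjusted p = 3.79e-12). Only 9.02% of all regions had a lower relative change.

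A pair of other Nr4a1 regions followed it. The region chr15:101246054-101246928, 7.0 kb below the gene in coordinates, had 9.82, 12, 14.3 and 14.8 (IRF5+/+) and 12.7, 4.86 and 12.9 (IRF5-/-) at 0 h. Its 72 h heights were 5.76, 5.66, 5.63 and 4.82 and 4.32, 4.48, 4.91 and 4.44. Apart from IRF5-/- library 3 every untreated library was above every activated one, and the height fell by 1.12 (SE 0.19, limma adjusted p = 2.17e-08), or by 0.47 relative to all regions (adjusted p = 1.46e-09). The region chr15:101253597-101254570, across the lower boundary of the gene, had 3.66, 4.1, 5.7 and 5.54 and 3.71, 1.42 and 5.5 at 0 h against 1.99, 1.96, 1.68 and 1.87 and 1.74, 1.66, 1.41 and 1.26 at 72 h, a fall of 1.17 (limma adjusted p = 3.24e-08) and of 0.52 relative to all regions (adjusted p = 2.57e-05). The other 4 regions of Nr4a1 had a peak in 2 to 14 libraries and passed no presence test. Their heights were not tested, since each lacked a peak in at least 1 library. Inside the gene, chr15:101258152-101258960 lacked a peak only in IRF5-/- library 3 at 72 h. Its heights were 4.52 to 6.88 (IRF5+/+) and 2.52 to 5.16 (IRF5-/-) at 0 h. At 72 h they were 1.28 to 1.42 and 1.13 to 1.47, below every untreated library.

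Nr4a3, which encodes the receptor NOR-1, showed falls at its start and a switch of peaks far away. The start region chr4:48044579-48045632, across position 48045305, had heights of 9.64, 11.6, 13.3 and 12.9 (IRF5+/+) and 11.1, 4.9 and 13.7 (IRF5-/-) at 0 h. At 72 h the heights were 4.13, 4.9, 5.05 and 4.28 and 3.34, 4.16, 3.37 and 3.74. All untreated libraries but IRF5-/- library 3 were above all activated ones. The height fell by 1.34 (SE 0.19, limma adjusted p = 2.38e-11), or by 0.69 relative to all regions (SE 0.06, adjusted p = 1.54e-13).

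Inside Nr4a3 the region chr4:48074438-48075542 had 9.99, 9.59, 13.1 and 11.1 and 10.1, 4.94 and 11.2 at 0 h and 3.2, 2.98, 4.44 and 2.8 and 2.45, 3.51, 3.03 and 2.95 at 72 h, IRF5+/+ first. No activated library reached the lowest untreated one, and the fall of 1.60 (limma adjusted p = 2.38e-15), or 0.95 relative to all regions (adjusted p = 3.74e-15), was matched in size only by the Egr2 start region among the 18. The region chr4:48042655-48043869, 1.2 kb below the gene, had 13.9, 12.2, 15.4 and 17.2 and 13.6, 5.32 and 15.1 at 0 h. It had 5.92, 6.02, 6.01 and 5.02 and 5.43, 4.52, 4.52 and 4.44 at 72 h, a fall of 1.24 (limma adjusted p = 4.81e-10) and of 0.59 relative to all regions (adjusted p = 3.64e-11). Farther out there was 1 more per-M fall. The region chr4:48034229-48035209, 9.9 kb away, had 2.45, 2.69, 3.07 and 2.61 and 2.51, 0.803 and 2.53 at 0 h against 1.38, 1.56, 1.84 and 1.36 and 1.34, 1.05, 1.28 and 1.17 at 72 h; it fell by 0.67 per M fragments (limma adjusted p = 0.0017), with a relative change of −0.02 (adjusted p = 0.889), or −0.19 without IRF5-/- library 3 at 0 h (adjusted p = 0.147). The region chr4:48011924-48012877, 32.2 kb away, had 5.18, 4.66, 6.55 and 6.33 and 5.05, 2.14 and 5.36 at 0 h and 4.13, 4.9, 5.32 and 4.47 and 3.69, 3.63, 3.93 and 3.7 at 72 h, groups that overlap. Its change was −0.16 per M fragments (limma adjusted p = 0.467) and turned to +0.49 relative to all regions (adjusted p = 9.01e-08); without IRF5-/- library 3 at 0 h the per-M change was −0.37 (adjusted p = 0.00253).

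Far below Nr4a3 a peak appeared and another went. The region chr4:47957704-47958633, 86.4 kb from the gene, had no peak in any untreated library and heights of 2.47, 2.39, 3.52 and 1.98 in IRF5+/+ and 2.05, 1.74, 2.48 and 1.64 in IRF5-/- libraries at 72 h. A peak in all 8 activated and none of 7 untreated libraries gave the smallest p of the exact test, with an adjusted p of 0.00399. The region chr4:47964714-47965437, 79.6 kb away, had a peak in 6 of 7 untreated libraries, with heights of 1.29, 1.24, 1.13 and 1.07 in IRF5+/+ and 0.777 and 1.12 in IRF5-/- libraries. At 72 h its only peak was in IRF5+/+ library 1, at 0.811 (lost, exact test adjusted p = 0.0443). That call ended when any library but IRF5-/- library 3 at 0 h or IRF5+/+ library 1 at 72 h was left out, with an adjusted p of up to 0.111. Both are assigned by nearest gene only, and the lost region overlaps the annotated gene Gm52735. The other 4 Nr4a3 regions had a peak in 3 to 14 libraries and passed no presence test. Their heights were not tested, since each lacked a peak in at least 1 library.

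Nr4a2, which encodes the receptor NURR1, went the other way at its start. The region chr2:57123178-57124610 across the start at 57124003 had 1.56, 1.41, 1.46 and 2.45 in IRF5+/+ and 1.31, 0.459 and 1.46 in IRF5-/- libraries at 0 h. It had 3.04, 3.45, 3.06 and 2.84 and 2.98, 2.7, 2.48 and 3.41 at 72 h, so that every activated library was above every untreated one. The height rose by 1.23 (SE 0.20, limma adjusted p = 7.38e-09), a 2.35-fold change, and by 1.89 relative to all regions (SE 0.12, adjusted p = 1.73e-19), a relative change above that of 98.2% of all regions. Peaks there covered a median of 1025 bases (147 to 1339) at 0 h and 1283 (1147 to 1341) at 72 h. The region also overlaps the annotated gene LOC105244150. The rise was 0.88 in IRF5+/+ cells (limma adjusted p = 0.00281) and 1.59 in IRF5-/- cells (adjusted p = 1.71e-06).

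The taller Nr4a2 region, chr2:57114162-57117891 inside the gene, had 3.88, 4.76, 4.77 and 6.21 and 4.06, 1.8 and 5.41 at 0 h and 6.12, 6.42, 6.39 and 6.34 and 5.92, 6.1, 6.7 and 6.03 at 72 h, IRF5+/+ first. Only IRF5+/+ library 4 at 0 h reached into the activated range. It rose by 0.62 (SE 0.19, limma adjusted p = 0.00226) and by 1.27 relative to all regions (adjusted p = 4.26e-21); without IRF5-/- library 3 at 0 h the per-M rise was 0.39 (adjusted p = 0.001). The region chr2:57102360-57103210, 3.6 kb below the gene, had 1 low peak at 0 h, 0.353 in IRF5-/- library 1. At 72 h all 8 libraries had one, at 1.05, 1.16, 0.842 and 0.778 in IRF5+/+ and 0.846, 0.928, 0.939 and 0.889 in IRF5-/- libraries (gained, exact test adjusted p = 0.0121). The other 2 regions had a peak in 2 and 4 libraries, all at 72 h, and passed no test. The windows printed above for the 3 NR4A genes each held 4 half-sites, at different positions. The height at the start fell at Nr4a1 and Nr4a3 and rose at Nr4a2. A link between half-sites and these changes was not tested.

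Egr1, the zinc-finger gene also called Zif268, was also lower at both regions open in every library. The region chr18:34859857-34862010, across the lower boundary of the gene, had 13.6, 14.4, 18.4 and 17.7 in IRF5+/+ and 13.1, 6.58 and 15.5 in IRF5-/- libraries at 0 h. It had 6.16, 6.64, 5.17 and 5.56 and 4.49, 4.88, 5.38 and 4.77 at 72 h. Only IRF5-/- library 3 at 0 h, at 6.58, fell within the activated range. The height fell by 1.31 (SE 0.19, limma adjusted p = 3.70e-11), and by 0.66 relative to all regions (adjusted p = 4.94e-14). The region chr18:34854339-34856611, 4.6 kb below the gene, had 8.57, 9.28, 10.7 and 11.9 and 9.6, 3.79 and 10.3 at 0 h and 4.86, 4.57, 4.48 and 4.16 and 3.83, 3.88, 3.03 and 3.74 at 72 h. Its fall was 1.08 (limma adjusted p = 1.01e-07) and 0.43 relative to all regions (adjusted p = 3.99e-07). The third region, 15.2 kb above the gene, had a peak in 2 libraries.

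Egr2, also called Krox-20, had the tallest start region of the 6 genes and the most regions around it. The start region chr10:67535261-67538224 had 17.8, 18.8, 22.2 and 23.8 in IRF5+/+ and 16.6, 8.53 and 19.4 in IRF5-/- libraries at 0 h. It had 5.63, 5.77, 7.12 and 5.79 and 4.54, 5.61, 5.51 and 5.15 at 72 h, and the groups did not overlap. The height fell by 1.60 (SE 0.19, limma adjusted p = 2.88e-16), 3.02-fold, and by 0.95 relative to all regions (SE 0.06, adjusted p = 1.18e-19); 5.48% of all regions had a lower relative change. The change was −1.76 in IRF5+/+ cells (95% interval −2.26 to −1.26) and −1.43 in IRF5-/- cells (95% interval −1.97 to −0.90).

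Below Egr2, 12 regions lay between 4.4 and 75.3 kb from the gene, and here peaks were gained, lost and raised side by side. The region chr10:67493581-67494163, 40.3 kb away, had no peak at 0 h. At 72 h its heights were 3.97, 3.16, 3.87 and 2.96 in IRF5+/+ and 2.58, 2.38, 2.65 and 2.9 in IRF5-/- libraries (exact test adjusted p = 0.00399). The region chr10:67479876-67480443, 54.0 kb away, also had no peak at 0 h, and 1.62, 1.31, 1.95 and 1.24 and 1.16, 1.45, 1.62 and 1.68 at 72 h (exact test adjusted p = 0.00399). When a peak had to cover at least 0.5 of the region, this call and that of the region at 4.4 kb ended, with an exact test adjusted p of 0.0548 each. The region chr10:67505146-67505587, 28.9 kb away, had 1 peak at 0 h (1.17, IRF5+/+ library 3) and 7 at 72 h, 1.7, 1.49, 1.99 and 0.972 in IRF5+/+ and 1.07, 1.01 and 1.37 in IRF5-/- libraries. The region chr10:67529487-67530104, 4.4 kb away, had none at 0 h and 6 at 72 h, 0.649, 1.02 and 1.11 in IRF5+/+ and 0.623, 0.565 and 0.512 in IRF5-/- libraries. These last 2 regions had an exact test adjusted p of 0.0443 each and lost their call in 13 of 15 fits that left out 1 library, with adjusted p up to 0.113. The exceptions were IRF5+/+ library 3 at 0 h and IRF5-/- library 4 at 72 h for the region at 28.9 kb, and library 4 of either genotype at 72 h for that at 4.4 kb.

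In the middle of the gained regions a peak was lost. The region chr10:67483385-67483744, 50.7 kb from Egr2, had a peak in 6 of 7 untreated libraries, 0.793, 1.09 and 1.11 in IRF5+/+ (libraries 2, 3 and 4) and 0.494, 0.612 and 0.682 in IRF5-/- libraries, and in none of 8 activated ones (exact test adjusted p = 0.0121). With an equal number of the strongest peaks from each library its adjusted p was 0.438, as was that of the gained region at 28.9 kb. With a −log10 q of at least 5 it was 0.0973, as was that of the gained region at 4.4 kb.

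At 3 Egr2 regions farther than 30 kb a peak was present throughout. The region chr10:67496930-67498142, 36.3 kb away, had 2.1, 1.9, 2.71 and 2.34 in IRF5+/+ and 1.52, 0.803 and 1.66 in IRF5-/- libraries at 0 h. Every activated library was higher, at 3.45, 3.3, 4.9 and 3.5 and 3.12, 2.99, 3.16 and 2.85. The rise of 1.0 (SE 0.20, limma adjusted p = 2.55e-06), or 1.65 relative to all regions (adjusted p = 2.21e-19), exceeded that of 96.9% of all regions on the relative scale. The region chr10:67487535-67487935, 46.5 kb away, had 1.03, 1.03, 1.74 and 1.11 and 1.16, 0.497 and 0.974 at 0 h and 1.5, 1.85, 1.76 and 1.17 and 1.02, 1.45, 0.896 and 1.17 at 72 h. These overlap, and the change was +0.40 per M fragments (limma adjusted p = 0.059) and +1.05 relative to all regions (adjusted p = 3.72e-09). The per-M change became a call, at 0.46 to 0.53, without IRF5-/- library 1 or 4 at 0 h or 3 at 72 h, or IRF5+/+ library 3 at 0 h or 4 at 72 h. Without IRF5-/- library 3 at 0 h it was 0.22 (adjusted p = 0.193), and 0.97 relative to all regions (adjusted p = 1.05e-07). The region chr10:67502933-67504288, 30.2 kb away, had 3.61, 4, 4.49 and 4.35 and 3.28, 1.45 and 3.46 at 0 h and 2.72, 2.9, 3.14 and 2.41 and 2.23, 2.26, 2.05 and 2.43 at 72 h. Its change was −0.37 per M fragments (limma adjusted p = 0.0811), −0.58 without IRF5-/- library 3 at 0 h (adjusted p = 1.73e-05), and +0.28 relative to all regions (adjusted p = 0.00398). Without that library the relative change was +0.18 and no longer a call (adjusted p = 0.0818). Of the other 5 Egr2 regions, with a peak in 4 to 14 libraries, the nearest to a call was chr10:67538602-67539343 inside the gene, with a peak in 1 untreated and 7 activated libraries (exact test adjusted p = 0.0575). The regions at 36.3 and 30.2 kb, the gained regions at 28.9 and 4.4 kb and the start region also overlap the annotated gene Gm32255, and those at 30.2 and 54.0 kb overlap Gm40679 and Gm51825.

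**Figure D4:**
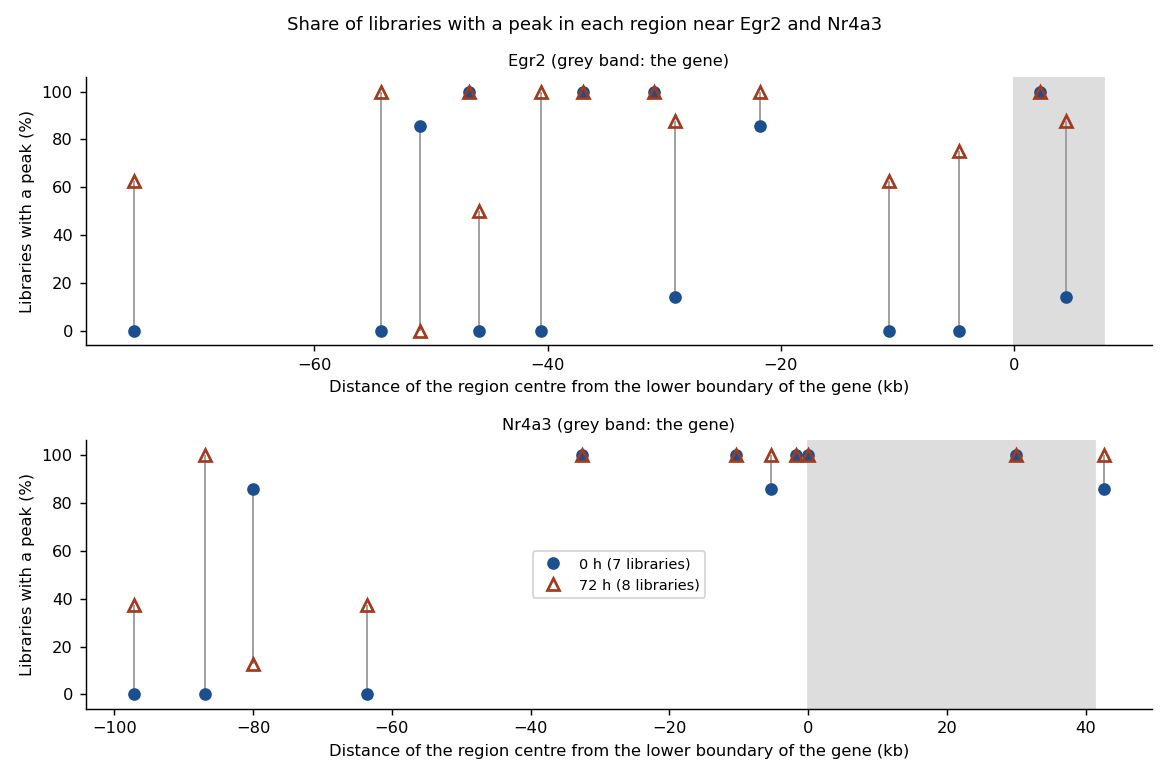
Share of the 7 untreated (blue points) and 8 activated (red triangles) libraries with a peak in each region near Egr2 and Nr4a3, by distance of the region's centre from the lower boundary of the gene in kb; the grey band is the gene. Points at 100% for both times mark regions open throughout. At Egr2 the regions gained at 40.3, 28.9 and 4.4 kb stand between them, and the region gained at 54.0 kb lies beyond them. The lost region at 50.7 kb has no activated library.

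Egr3, which is known to act beside Egr2 in T cell anergy, had the lowest tallest region of the 6 genes at 72 h. Its tallest region within 1 kb, chr14:70076522-70077297, ended 20 bp below the gene and had 4.55, 4.76, 7.52 and 5.38 in IRF5+/+ and 4.8, 2.22 and 6.33 in IRF5-/- libraries at 0 h. It had 2.59, 3.37, 2.99 and 2.57 and 2.49, 2.66, 2.73 and 3.04 at 72 h, below all untreated libraries except IRF5-/- library 3. The height fell by 0.75 per M fragments (SE 0.20, limma adjusted p = 2.97e-04), and the relative change was −0.10 (95% interval −0.27 to 0.07, adjusted p = 0.276). Without IRF5-/- library 3 at 0 h the relative change was −0.22 and passed the test (limma adjusted p = 0.0279). The region chr14:70074477-70076209, 1.1 kb below the gene, had 6.96, 8.31, 9.22 and 9.62 and 6.99, 2.68 and 6.62 at 0 h and 3.65, 4.03, 4.06 and 2.99 and 2.8, 3.43, 2.95 and 3.23 at 72 h. It fell by 0.95 (limma adjusted p = 3.47e-06) and by 0.30 relative to all regions (adjusted p = 1.78e-04). Inside the gene the region chr14:70078352-70078883 had no peak at 0 h and 7 at 72 h, at 1.66, 1.96, 1.88 and 1.48 in IRF5+/+ and 1.25, 1.45 and 1.36 in IRF5-/- libraries (gained, exact test adjusted p = 0.0121). With a −log10 q of at least 5 this adjusted p was 0.335. It was the only gained region of the 7 that overlaps its gene. The other 2 Egr3 regions had a peak in 2 and 4 activated libraries and passed no test.

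No region of the 6 genes was called different between IRF5-/- and IRF5+/+ cells at an adjusted p under 0.05. In the exact test of peak presence with time as stratum, 0 of 45 regions were called (0.0% of all regions were). With so few libraries, even a fully separated region could pass the adjustment over all regions only if many others shared its p. The 0 calls of this test therefore do not show that presence is alike in the genotypes. Before adjustment, 0 of the 45 regions had a p under 0.05 in this test, and the smallest p was 0.143. It was at an Nr4a3 region 97.0 kb away with a peak in 3 of 4 IRF5+/+ and 0 of 4 IRF5-/- libraries at 72 h. Among all regions 1168 had an unadjusted p under 0.05, and the unstratified Fisher's exact test also called 0. For height, limma called 0 of 18 regions (0.151% of all were lower and 0.00472% higher in IRF5-/- cells), with 12 at an unadjusted p under 0.05 (44.2% of all regions were) and a lowest adjusted p of 0.0756, at the Egr2 region 36.3 kb away. There the difference, IRF5-/- minus IRF5+/+, was −0.56 (95% interval −0.96 to −0.17), beside a median of −0.37 over all regions. Without IRF5-/- library 4 at 0 h 17 of the 18 were called lower, where 79.0% of all regions were and 0.0141% were higher, without library 1 it was 7 of 18 (24.6% of all), and without library 3 it was 0 of 20 (1.83% of all were lower and 0.0289% higher). Relative to all regions limma called 0 of 18 (0.0661% of all were lower and 0.34% higher), with 0 at an unadjusted p under 0.05 (12.3% of all regions were), and the differences ran from −0.20 at that Egr2 region (95% interval −0.40 to 0.0060) to +0.14 at the Nr4a1 start (−0.01 to 0.28).

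Within one time limma called 0 of 18 at 0 h and at 72 h on either scale. Per M fragments 0.0% of all regions were called at either time, with 7 members at an unadjusted p under 0.05 at 0 h (36.8% of all regions) and 0 at 72 h (5.03%). Relative to all regions 0.0142% were higher and 0.0% lower at 0 h, and 0.548% were higher and 0.264% lower at 72 h, with 2 and 0 members at an unadjusted p under 0.05 (7.17% and 14.1% of all regions).

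The change with activation was not shown to differ between the genotypes at any of the 18 regions. The limma interaction called 0 regions per M fragments (0.0% of all, lowest adjusted p of a member 0.857, 0 at an unadjusted p under 0.05) and 0 relative to all regions (0.00472% of all were called), where 1 had an unadjusted p under 0.05 (8.88% of all regions did). That one was the Nr4a3 start, whose relative fall was 0.56 in IRF5+/+ and 0.82 in IRF5-/- cells, a difference of −0.26 (95% interval −0.51 to −0.0046, adjusted p = 0.553). At the Nr4a2 start the difference of the rises was +0.70 per M fragments (95% interval −0.09 to 1.5). Within IRF5+/+ cells every 72 h library was lower than every 0 h library at 13 of 18 regions (66.7% of all regions), and within IRF5-/- cells, where library 3 at 0 h is low, at 5 of 18 (19.6%).

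The height profile of the tallest region within 1 kb of each gene was compared over the 15 libraries with that at 10887 protein-coding genes. The measure was the mean absolute log2 difference after centring each region. Nearest to Nr4a1 were Nfe2l1 (0.0837) and Rcn2 (0.0881), to Nr4a3 Abl2 (0.0807), Zfp566 (0.0837) and Kyat1 (0.0842), and to Nr4a2 Bend5 (0.0798), Pam (0.0833) and Slc25a13 (0.0863). Nearest to Egr1 were Kdm6b (0.0629), Zfp212 (0.0661) and Phpt1 (0.0681), to Egr2 Arid1b (0.0736), Cubn (0.0759) and Gpr18 (0.0846), and to Egr3 Actb (0.0807), Ptpn4 (0.0869) and Josd2 (0.0879). Among themselves Nr4a1, Nr4a3, Egr1 and Egr2 lay 0.124 (Nr4a3 and Egr1) to 0.196 (Nr4a1 and Egr2) apart. Nr4a2 lay between 0.682 (Egr3) and 1.11 (Egr2) from the other 5. All these profiles share the depth and scaling of the same 15 libraries.

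The genes around the family were described from a list by role. For 15 factors that act on such promoters (SRF with its ELK and MRTF partners, CREB, MEF2 and NFAT), 29 of 199 regions (14.6%) were gained and 12 (6.03%) lost with activation, against 18.4% and 4.65% of all regions. Nfatc2, a calcium-regulated factor downstream of the T cell receptor, gained 9 of its 26 regions, while Mrtfa, an actin-regulated partner of SRF, lost 6 of 24 and gained none. Of 54 regions with a height in every library 39 were lower and 5 higher by limma (median change −0.89), where 65.4% and 8.89% of all regions were, and relative to all regions 30 were lower and 14 higher (median −0.24), against 36.9% and 36.1%.

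For 18 other immediate early genes, 18 of 210 regions (8.57%) were gained and 16 (7.62%) lost, where 18.4% and 4.65% of all regions were. Btg1, an antiproliferative gene, gained 1 and lost 8 of its 40 regions, and Dusp5, a phosphatase gene of the ERK pathway, gained 4 and lost 2 of 21. Of 80 regions measured in every library 61 were lower and 7 higher per M fragments (median −0.90), where 65.4% and 8.89% of all regions were. Relative to all regions 43 were lower and 20 higher (median −0.25), against 36.9% and 36.1%.

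The corepressors of EGR proteins are Nab1 and Nab2. Of their 19 regions 3 (15.8%) were gained, all at Nab1, and none lost, against 18.4% and 4.65% of all regions. Of 6 regions measured in every library 2 were higher and 2 lower per M fragments (median −0.23), where 8.89% and 65.4% of all regions were. Relative to all regions 5 were higher and 1 lower (median +0.42), against 36.1% and 36.9%. The tallest region at Nab1 went from a mean of 8.28 at 0 h to 1.63 at 72 h, and so fell by 2.25 on the log2 scale (limma adjusted p = 1.11e-27). Relative to all regions it fell by 1.6 (limma adjusted p = 3.24e-21). It was the only 1 of 4 Nab1 regions measured in every library that was lower, and 2 were higher per M fragments. The tallest region at Nab2 went from 3.83 to 2.96, a change of −0.24 (limma adjusted p = 0.268) that was +0.41 relative to all regions (adjusted p = 9.32e-05). For 24 genes reported as targets or partners of EGR or NR4A proteins in T cells, 30 of 301 regions (9.97%) were gained and 35 (11.6%) lost, against 18.4% and 4.65% of all regions. Tox, a factor of T cell exhaustion, gained 4 and lost 9 of its 42 regions, and the tallest region at the gene went from 15.1 to 1.29, a fall of 3.46 (limma adjusted p = 1.74e-65). At Cblb, whose ubiquitin ligase dampens signals from the T cell receptor, 3 of 49 regions were gained and 6 lost. Of 83 regions of this list measured in every library 53 were lower and 9 higher per M fragments (median −0.80), where 65.4% and 8.89% of all regions were. Relative to all regions 39 were lower and 29 higher (median −0.15), against 36.9% and 36.1%.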

How the data were processed

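Trim Galore 0.5.0, Bowtie2 2.2.9, MACS2, HOMER 4.10.4 and mm10 are named in the submitters' processing notes. Per the file headers, MACS2 2.1.1.20160309 called peaks library by library from paired-end alignments, with no control sample, at most 1 duplicate per position and a q value of 0.05. The deposited pileup is a signal, the fragment coverage at a peak's summit; the deposited −log10 q values were used as a filter only. Per the file headers IRF5+/+ library 4 came from an alignment numbered 5 at both times.

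From these lists 111393 regions were built, 83743 of them in at least 2 libraries. Presence was tested by a two-sided exact conditional test over 15 libraries, adjusted by Benjamini-Hochberg over all 83743 (smallest possible p 4.08e-04). Height, the highest pileup in a region divided by the fragments after filtering in M (20.5 to 29.0 per library, which limits weak peaks), was tested as log2 with limma 3.58.1 (R 4.3.3, trend) over the 21176 regions called in all 15 libraries, adjusted over all of them. The relative scale divides each library by its median ratio over these regions. A region was called where its adjusted p was under 0.05. Both tests were checked on simulated data.

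Genes came from RefSeq GRCm38.p6 gene bounds (21883 protein-coding genes), which give no exons, so the finest place is the gene. Named are the 6 genes, values in every library for the tallest region within 1 kb of each and every region past a test, the 3 genes most alike (some gene names are not reported here), and up to 2 genes per role with the most changed regions. The members and all lists were chosen with earlier results of these data known. The labels do not say whether libraries with the same replicate number share a mouse or culture. Height deviations of same-numbered libraries correlated with a median of 0.0081, and 1 of 21 pairs was above 0.1. For differently numbered libraries the median was −6.18e-04, and 6 of 63 pairs were above 0.1. Low correlations cannot show that same-numbered libraries have separate sources. No pair of libraries had identical heights. The authors' peaks called on merged replicates were not used here, and their final lists per condition served only to look up the gained and lost regions.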

Additional observations from a re-analysis of the deposited data

Results flagged for a closer look

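In 54 groups of 4 libraries, the gap between the most distant library and its nearest neighbour was set against the range of the group, and 9 groups passed the limit of Dixon's test; chance passes about 1 in 20. The ratios and heights per M fragments were as follows. At the Nr4a1 region 7.0 kb away the lowest IRF5+/+ library at 72 h, library 4 (4.82), gave 0.863. At the Nr4a1 start the lowest IRF5-/- library at 72 h, library 2 (3.27), gave 0.955. At the Nr4a2 start the highest IRF5+/+ library at 0 h, library 4 (2.45), gave 0.858. At the Nr4a3 region 1.2 kb away IRF5+/+ library 4 at 72 h (5.02) was low, with 0.896, and IRF5-/- library 1 at 72 h (5.43) was high, with 0.918. At the Egr1 region 4.6 kb away IRF5-/- library 3 at 72 h (3.03) was low, with 0.843. At Egr2, IRF5+/+ library 3 was the highest at 46.5 kb at 0 h (1.74, with 0.885), at 36.3 kb at 72 h (4.9, with 0.877) and at the start at 72 h (7.12, with 0.893).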

How the results depend on the processing

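The 7 gained and 2 lost regions became 3 gained when each library gave its 29994 strongest peaks, 3 gained and 0 lost with genes within 20 kb, and 0 and 0 with the replicate number as a further stratum (replicate block), where no region of all 83743 was called. Under that block even a region with a peak in every activated and no untreated library had an exact test adjusted p of 0.141. The block therefore could not call any region, and its 0 says nothing about these calls. Leaving out each library gave 5 to 7 gained and 1 to 2 lost. Requiring overlap of 0.5 of a region or peak is met by every merged peak and changed nothing. The 3 regions with greater height at 72 h became 1 among regions with a mean height above the median, 5 over regions called in at least 10 libraries, and 6 on the median-ratio scale, with or without IRF5-/- library 3 at 0 h (this setting, coverage of 0.5 of a region and height over mean genome coverage were chosen after seeing the data). The 12 regions with lower height became 10 among regions with a mean height above the median and 10 on the median-ratio scale. Over regions called in at least 10 libraries they became 15, where 18248 of all 33885 regions were lower and 5452 higher. Leaving out each library gave 3 to 4 higher, 12 to 15 lower, and 0 to 17 genotype calls. Within a fit the median-ratio scale moves the log2 change of every region by the same amount. This reversed the sign at 2 regions that were not called per M fragments over all 15 libraries. At the Nr4a3 region 32.2 kb away the change became 0.49, and 0.38 without IRF5-/- library 3 at 0 h. At the Egr2 region 30.2 kb away it became 0.28, and 0.18 without that library (limma adjusted p = 0.0818 and so not called). The cause of the shift of all regions was not tested. The replicate block changed none of the 18 height calls. Over all regions the 15380 gained and 3895 lost became 6637 and 6349 with the strongest peaks, and 8843 gained when a peak had to cover 0.5 of the region. Depth (20.5 M to 29.0 M fragments) limits whether weak peaks are called.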
